A study of Mus musculus with 8 samples.

Results

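Fluocinolone acetonide (FA), a synthetic glucocorticoid, was put on mouse skin before the irritant phorbol ester TPA, and the epidermal RNA was compared with that of skin given TPA without FA. The comparison was formed from the labels: the 2 FA+TPA libraries (1 wild type, 1 REDD1 knockout) against the 2 TPA libraries (1 wild type, 1 REDD1 knockout), 4 of the 8 libraries of the series. The other 4 were vehicle libraries, 2 per genotype, which set the level before TPA and supplied spread for the tests. All mice were females of the F1 C57Bl x 129 background, shaved on the back. Vehicle mice received 200 ul of acetone. TPA mice received 4 ug of TPA in 200 ul of acetone, and FA+TPA mice received 2 ug of FA in 200 ul of acetone 1 h before that dose of TPA. Skin was taken 24 h after TPA, the epidermis was scraped off and total RNA was sequenced. No library of skin given FA alone was analysed here, so what FA did without TPA was not measured. Nothing in the sources used here says whether each library came from 1 mouse or from a pool, and p-values therefore measure the spread between these libraries, which may be technical.

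Glucocorticoids bind the glucocorticoid receptor, a nuclear receptor that enters the nucleus, activates genes through glucocorticoid response elements in DNA and represses inflammatory genes driven by the transcription factors AP-1 and NF-kB. TPA activates protein kinase C and through it AP-1 and NF-kB, and in mouse epidermis it is known for causing inflammation, thickening and a wound-like keratinocyte program. REDD1, encoded by Ddit4, is a stress- and glucocorticoid-inducible inhibitor of the growth kinase complex mTORC1, and its loss is known for altering steroid side effects in skin.

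Ddit4 (chromosome 10, 59949669 to 59951834, mm10) was measured first, because it checks the genotype labels. In CPM, counts scaled to a common library total with TMM factors, the wild-type libraries had 128 and 117 with vehicle, 64.2 with TPA and 90.3 with FA+TPA. The knockout libraries had 18.8 and 18.6 with vehicle, 4.44 with TPA and 7.25 with FA+TPA, so every knockout library lay below every wild-type library, with reads of the gene remaining (the sources used here do not say which part was deleted). The log2 change of Ddit4 from TPA to FA+TPA was 0.55 ± 0.25 (SE, edgeR adjusted p = 0.205) and did not pass the 0.05 threshold. It passed with 1 mean per group (edgeR adjusted p = 0.0241), without the low-count filter (edgeR adjusted p = 0.0191) and in the 4 treated libraries alone (edgeR adjusted p = 0.00581). Library totals ran from 16874233 to 22560098 counts, and 3 counts, the level that a count of 0 allows, came to 0.135 to 0.191 CPM. The keratinocyte genes Krt5, Krt14 and Krt10 were at 1903 CPM or more in every library of the labelled epidermis. The noncoding RNA Gm26917 took 8.34% to 13.83% of the counts in vehicle libraries and 16.77% to 24.21% in treated libraries.

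A minority of the genes called with TPA also passed the test for FA, and most of those that passed moved back toward vehicle. The FA test set 2 libraries against 2 and the TPA test 2 against 4. A gene that missed the FA threshold is therefore not shown to be unchanged by FA. Of 19251 genes tested, 1929 differed between FA+TPA and TPA at an edgeR adjusted p under 0.05, 1099 higher (5.71%) and 830 lower (4.31%). TPA alone against vehicle called 4472 genes higher (23.2%) and 4380 lower (22.8%). FA+TPA against vehicle still called 3347 higher (17.4%) and 2729 lower (14.2%). With library size as the only scaling, the median of all genes moved to -0.25 (TPA) and -0.23 (FA+TPA) on the log2 scale against vehicle. The calls then split into 2846 higher and 6432 lower for TPA and 1953 higher and 4982 lower for FA+TPA, while FA+TPA against TPA kept a median of 0.014. These comparisons share libraries, the TPA libraries standing on both sides of the TPA and FA contrasts, so opposite signs are in part built in and their overlap is given as a count only. Of the FA calls, 728 genes had been raised by TPA and were lower with FA (called blocked here), and 804 had been lowered by TPA and were higher with FA (called restored). A further 187 genes were not called with TPA but were higher in FA+TPA than in both TPA and vehicle (called induced with FA), and 72 were the mirror image (called lowered with FA). FA pushed 82 genes further up and 14 further down in the direction TPA had moved them, and 42 were called between FA+TPA and TPA alone. The FA-lowered genes were 16.3% of all that TPA raised, and 266 of the 609 (43.7%) that TPA raised 4-fold or more. The FA-raised genes were 18.4% of all that TPA lowered, and 189 of the 510 (37.1%) that TPA lowered 4-fold or more.

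Each treatment had 1 library per genotype, and the calls leaned on each of them. When each of the 8 libraries was left out in turn, 430 of the 1929 calls (22.3%) passed every time, 263 higher and 167 lower. The lowest counts came without the wild-type FA+TPA library, at 330 higher and 241 lower, with the remaining library of that treatment assumed to vary like the other groups. Genes named below passed in all of these fits unless a library is named beside them. In bulk RNA, fewer cells of a type and less RNA per cell cannot be told apart.

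**Figure D1:**
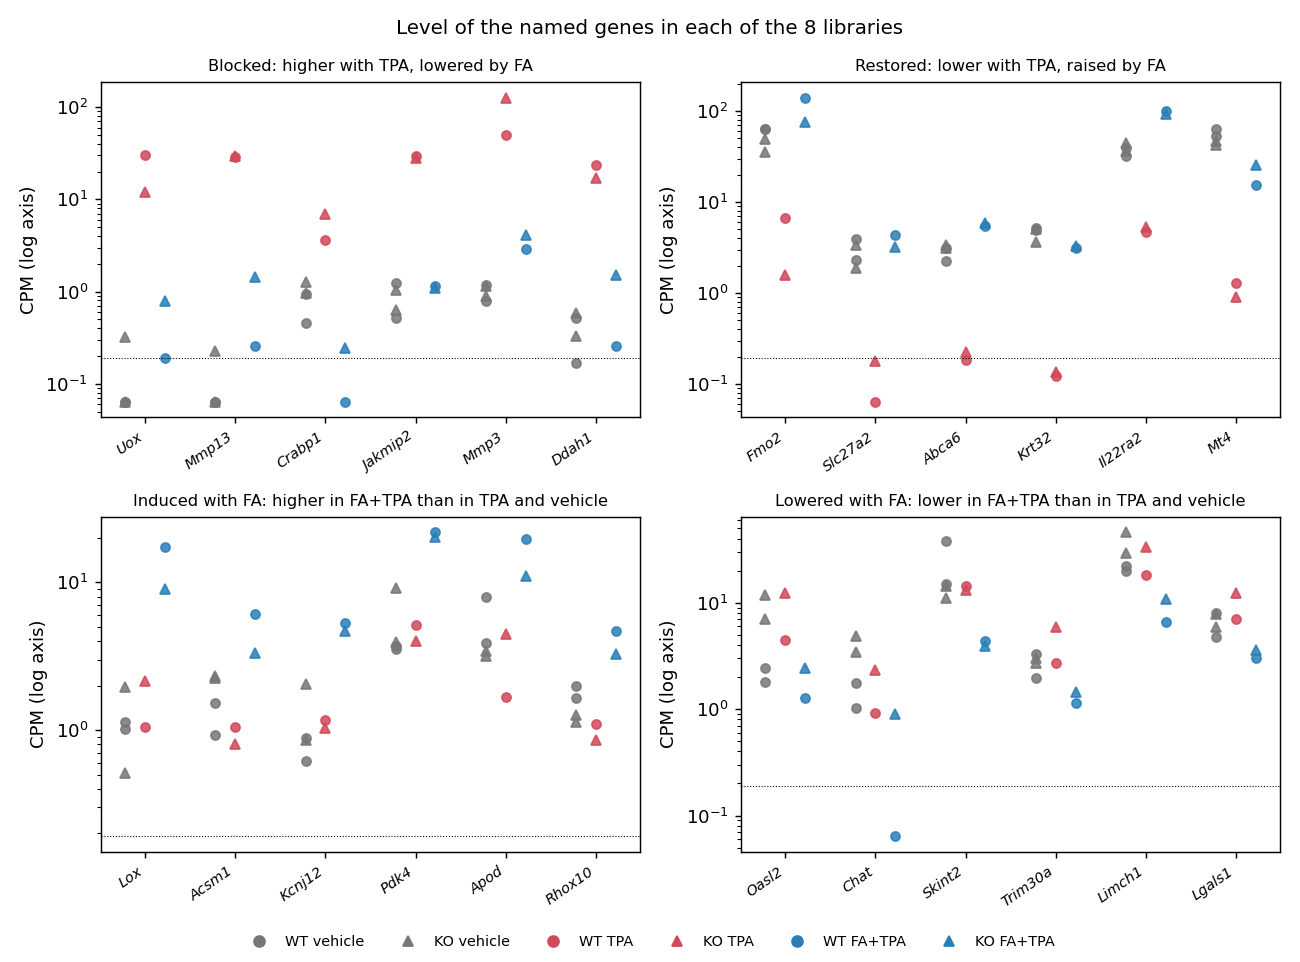
Level in CPM (log axis) of the 6 genes with the largest FA change by the naming rule in each of 4 classes, in each of the 8 libraries; circles are wild type, triangles knockout, and colours mark vehicle, TPA and FA+TPA. The dotted line is the highest per-library level of 3 counts (0.191 CPM), and the lowest values, counts of 0 included, are drawn at a fixed height under it. In the blocked and restored panels both FA+TPA points lie apart from both TPA points for every gene.

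The matrix-cutting enzymes of wounded skin were among the genes FA held down most. Mmp13, a collagenase (chromosome 9, 7272514 to 7283331), had 28.7 CPM in the wild-type and 29.6 CPM in the knockout TPA library. With FA+TPA it was at 0.255 and 1.45 CPM, and in the 4 vehicle libraries at 0.0565, 0.0517, 0.0469 and 0.227 CPM. Both FA+TPA libraries thus lay far below both TPA libraries, a fall of 5.13 ± 0.39 on the log2 scale (edgeR adjusted p = 5.42e-05). The wild-type FA+TPA library had 4 counts of Mmp13 and knockout vehicle library 2 had 5, so their order is uncertain. Mmp3, a stromelysin on the same chromosome (7445822 to 7455975), went from 49.4 and 127 CPM to 2.93 and 4.11 CPM, against 0.791 to 1.19 CPM in vehicle. Mmp9, a gelatinase of keratinocytes and neutrophils, was changed little by TPA (log2 change 0.41, edgeR adjusted p = 0.0415). FA took it from 48.8 and 37.9 CPM to 7.19 and 11.2 CPM, well under the 31.6 to 34 CPM of vehicle. In the list of proteases and their inhibitors, 15 of 39 tested members fell with FA and 0 rose, with a median log2 change of -0.60 against 0.007 over all genes. With a library left out the number that fell was as low as 7 (without the knockout FA+TPA library), and 4 passed in all 8 fits.

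The 250 bases upstream of Mmp13 and Mmp3 are shown because each holds the motif of AP-1. Glucocorticoids are known to repress AP-1, but its part in these falls was not tested. The motif was in 4.97% of the promoters of blocked genes and 4.13% of all promoters of tested genes. Sequences are RefSeq promoters on GRCm38.p6, the assembly mm10 names, written 5′ to 3′ up to the start site, with the AP-1 motif (TGACTCA or TGAGTCA) in capitals. The motif began 35 bases before the start site in Mmp13 and 46 bases before it in Mmp3.
Mmp13 chr9:7272264-7272513 (+ strand): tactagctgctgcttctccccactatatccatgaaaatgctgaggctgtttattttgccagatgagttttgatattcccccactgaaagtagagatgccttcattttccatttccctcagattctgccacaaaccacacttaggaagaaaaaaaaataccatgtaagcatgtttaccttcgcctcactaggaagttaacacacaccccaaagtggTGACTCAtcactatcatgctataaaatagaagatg
Mmp3 chr9:7445572-7445821 (+ strand): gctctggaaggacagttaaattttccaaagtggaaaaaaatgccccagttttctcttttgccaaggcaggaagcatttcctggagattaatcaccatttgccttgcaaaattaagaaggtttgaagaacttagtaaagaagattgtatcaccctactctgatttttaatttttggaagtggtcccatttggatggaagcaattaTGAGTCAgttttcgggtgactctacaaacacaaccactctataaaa

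In the list of wound matrix and junction genes 10 of 23 members fell and 3 rose (median log2 change -0.48). Tnc, which encodes the wound glycoprotein tenascin-C, had the smallest p of that list. It stood at 296 and 401 CPM with TPA, 22.3 and 34.2 CPM with FA+TPA, and 8.59, 7.81, 12.6 and 14.2 CPM with vehicle. The 3 treatments did not overlap, and FA lowered Tnc by 3.64 ± 0.12 on the log2 scale (edgeR adjusted p = 2.01e-07). Gjb2, the gap junction protein connexin 26, fell from 419 and 278 CPM to 48 and 80.1 CPM, still above the 4.24 to 8.4 CPM of vehicle. Has3, a hyaluronan synthase, fell by 2.09 ± 0.25 on the log2 scale (edgeR adjusted p = 0.000568). Of the 10 falls in the list 4 passed in all 8 fits, and 5 were left without the wild-type FA+TPA library.

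Stress keratins and small proline-rich proteins, which keratinocytes make when skin is wounded or inflamed, gave the largest share of falls among the lists. Of 17 tested members 11 fell and 0 rose, with a median log2 change of -1.96. The falls numbered 7 without the wild-type FA+TPA library, and 7 passed in all 8 fits. Krt17, a keratin of injured epidermis, was at 5577 and 5098 CPM with TPA and at 1025 and 1369 CPM with FA+TPA. The vehicle libraries had 508, 691, 555 and 549.8 CPM, so FA brought Krt17 down by 2.16 ± 0.18 on the log2 scale (edgeR adjusted p = 8.02e-05) without bringing it to vehicle. Krt75, a follicle keratin, fell by 2.54 ± 0.24 (edgeR adjusted p = 0.000178). Sprr2a3, a cornified envelope precursor, fell by 4.10 ± 0.37 (edgeR adjusted p = 0.000123), although Sprr2 genes are near-identical copies and the reads counted to each are uncertain. Krt6b, a wound keratin close in sequence to Krt6a and chosen here after its values were seen, stayed far above vehicle. It fell from 3613 and 2458 CPM to 533 and 647 CPM against 3.11 to 7.63 CPM in vehicle, a fall of 26.5% of the TPA rise on the log2 scale.

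Among interleukins and growth factors, falls outnumbered rises. Of 32 tested ligands 14 fell and 3 rose (median log2 change -0.64), with 4 falls and 2 rises passing in all 8 fits and 5 falls left without the wild-type FA+TPA library. Il19, an interleukin-20 family cytokine that acts on keratinocytes, went from 7.15 and 3.01 CPM to 0.127 and 0.181 CPM, at or under the level of 3 counts with FA and in vehicle. Il24, of the same family and chosen here after its values were seen, had 42 and 49 counts in the TPA libraries and 0 in each of the other 6 libraries. Set against 3 counts per FA+TPA library, Il24 was at least 13.6-fold lower in wild type and at least 12.2-fold lower in knockout. Inhba, the activin A subunit, fell by 2.62 ± 0.29 on the log2 scale (edgeR adjusted p = 0.000382). Il1b, chosen after its values were seen, fell from 7.27 and 11.3 CPM to 2.93 and 4.11 CPM, with 1.03 to 1.82 CPM in vehicle. Btc, the EGF receptor ligand betacellulin, went the other way. TPA lowered it to 18.1 and 15.3 CPM from 96.1 to 189 CPM, and FA+TPA libraries had 92.9 and 67.2 CPM, a rise of 2.25 ± 0.20 (edgeR adjusted p = 0.000106). Il18, an interleukin-1 family cytokine chosen after its values were seen, rose with FA from 49.6 and 47.3 CPM to 108 and 96.1 CPM, above the 46 to 61 CPM of vehicle.

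Among 21 tested chemokines 8 fell and 2 rose (median log2 change -0.64), but only the fall of Pf4, a platelet and macrophage chemokine, passed in all 8 fits. Pf4 was at 5.55 and 12.4 CPM with TPA, 0.70 and 0.664 CPM with FA+TPA and at most 0.136 CPM in vehicle. Without the knockout FA+TPA library 1 chemokine fell. Cxcl3, a neutrophil attractant, fell in the full fit by 4.55 ± 0.64 on the log2 scale (edgeR adjusted p = 0.00158). It did not pass with the knockout FA+TPA library left out (edgeR adjusted p = 0.101) or with the knockout TPA library left out (edgeR adjusted p = 0.129). Ccl20, which attracts T cells and dendritic cells, rose further with FA, from 2.46 and 2.15 CPM to 9.16 and 6.94 CPM (edgeR adjusted p = 0.00904). That call was lost with the knockout FA+TPA library left out (edgeR adjusted p = 0.134), with the wild-type TPA library left out (edgeR adjusted p = 0.0982) and with the wild-type FA+TPA library left out (edgeR adjusted p = 0.0544).

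Receptors and signal carriers had smaller median changes than the ligands. Of 38 cytokine receptors tested 8 fell and 3 rose (median log2 change -0.21). Il4ra, the receptor chain of interleukin-4 and interleukin-13, fell from 172 and 181 CPM to 60.7 and 62.2 CPM, with 41.3 to 53.2 CPM in vehicle. Osmr, the oncostatin M receptor, fell by 0.98 ± 0.10 on the log2 scale (edgeR adjusted p = 0.00034), and Il20rb, a receptor chain for Il19 and Il24, rose by 0.63 ± 0.09 (edgeR adjusted p = 0.00183). With a library left out, between 3 and 8 receptors fell. In the NF-kB pathway list 10 of 30 tested members fell and 1 rose (median log2 change -0.24), and without the wild-type FA+TPA library 1 fell. Cd40, a co-stimulatory receptor and NF-kB target, fell by 1.80 ± 0.28 (edgeR adjusted p = 0.00268). Map3k8, a kinase that acts upstream of NF-kB and MAP kinases, rose by 0.77 ± 0.10 (edgeR adjusted p = 0.00104). In the AP-1 and immediate early list 2 of 22 fell and 3 rose, and 0 of these passed in all 8 fits.

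Cytokine inhibitors moved both ways. Socs1, a cytokine-induced inhibitor of JAK-STAT signalling chosen after its values were seen, fell from 14.6 and 14.8 CPM to 3.05 and 6.04 CPM, the vehicle range being 4.0 to 5.49 CPM. Il22ra2, the soluble binding protein that neutralises interleukin-22 (chromosome 10, 19621998 to 19634681), went the opposite way. It was at 39.2, 32, 36 and 44.5 CPM in vehicle libraries, 4.62 and 5.25 CPM with TPA, and 98.6 and 93.5 CPM with FA+TPA. FA+TPA libraries therefore exceeded every vehicle library, a rise over TPA of 4.28 ± 0.17 on the log2 scale (edgeR adjusted p = 7.29e-07). Il1r2, the decoy receptor for interleukin-1, rose from 22.6 and 25.7 CPM to 55.2 and 50.7 CPM, short of the 75.3 to 88.2 CPM of vehicle. Tsc22d3, the glucocorticoid-induced leucine zipper protein that restrains NF-kB and AP-1, rose from 49.7 and 70.5 CPM to 244 and 198 CPM, inside the vehicle range of 180.5 to 314 CPM. Over the list of inhibitors and feedback genes, 3 of 32 rose and 5 fell, the 3 rises and 1 of the falls passing in all 8 fits.

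By the naming rule, which needs a mean log2 CPM of 1 or more, the 8 largest falls among blocked genes were Mmp13 and Mmp3 above and 6 others. Uox, urate oxidase, was at 30.1 and 11.9 CPM with TPA, 0.191 and 0.785 CPM with FA+TPA and at most 0.318 CPM in vehicle. Jakmip2, a microtubule-associated protein, fell from 29.2 and 27.7 CPM to 1.15 and 1.09 CPM, within the 0.517 to 1.24 CPM of vehicle. Crabp1, a retinoic acid binding protein, lay below vehicle with FA+TPA (0.0636 and 0.241 CPM against 0.452 to 1.27 CPM), after 3.64 and 7.0 CPM with TPA. Ddah1, which breaks down methylarginine inhibitors of nitric oxide synthase, fell by 4.52 ± 0.47 on the log2 scale (edgeR adjusted p = 0.000312). Rgs4, an inhibitor of G protein signalling, fell by 4.27 ± 0.34 (edgeR adjusted p = 7.19e-05). Alox8, an arachidonate lipoxygenase, fell by 4.49 ± 1.19 (edgeR adjusted p = 0.0375), but it was at 0.565 to 16.2 CPM among vehicle libraries. Its edgeR adjusted p was 0.231 without the wild-type FA+TPA library, 0.235 without the knockout FA+TPA library, 0.195 without the wild-type TPA library and 0.0524 without wild-type vehicle library 2.

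Sugar-using and hypoxia-associated genes raised by TPA came down in part. Of 18 glycolysis genes tested 7 fell and 0 rose (median log2 change -0.30), and 1 fell without the knockout FA+TPA library. Hk2, the hexokinase that commits glucose to glycolysis, fell from 225 and 193 CPM to 90.3 and 89 CPM, with 27.1 to 37.9 CPM in vehicle. Of 17 hypoxia-associated genes 6 fell and 0 rose, and 1 fell without the knockout FA+TPA library. Bhlhe40, a repressor of clock and stress genes, fell by 1.49 ± 0.14 (edgeR adjusted p = 0.000165), while Vegfa, the vessel growth factor, fell from 131 and 121 CPM to 65.9 and 50.4 CPM and just missed the threshold with the knockout FA+TPA library left out (edgeR adjusted p = 0.054). Among 20 NRF2 targets tested 3 rose with FA and 2 fell (median log2 change -0.05). Gsta4, an NRF2 target that detoxifies lipid peroxides, stayed above vehicle, at 24.8 and 27.5 CPM with FA+TPA after 96.8 and 69.7 CPM with TPA and 0.879 to 1.92 CPM in vehicle.

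In the list of outer epidermal differentiation genes, 29 of 65 tested members rose with FA, 2 fell and the others did not pass (median log2 change 0.44). TPA against vehicle had raised 37 of the 65 and lowered 14, and FA+TPA against vehicle called 49 higher and 6 lower. Of the 29 rises with FA, 12 were in genes pushed further up, 10 in restored genes and 7 in genes induced with FA. The rises numbered 16 without the wild-type FA+TPA library, and 15 passed in all 8 fits. Krt10, the main keratin of suprabasal cells and chosen here after its values were seen, was at 9763, 9715, 8443 and 7910 CPM in vehicle, 3187 and 1903 CPM with TPA, and 9695 and 8680 CPM with FA+TPA. Both FA+TPA libraries thus lay inside the vehicle range of Krt10 (log2 change 1.89 ± 0.15 over TPA, edgeR adjusted p = 7.31e-05). Mt4, the metallothionein of stratified epithelia, rose from 1.29 and 0.898 CPM to 15.3 and 25.5 CPM, under the 41.8 to 62.6 CPM of vehicle. Lce1m, a late cornified envelope protein, rose by 2.17 ± 0.11 on the log2 scale (edgeR adjusted p = 6.86e-06), and Krt78, another suprabasal keratin, by 2.02 ± 0.14 (edgeR adjusted p = 4.41e-05). Lor, the envelope protein loricrin, chosen after its values were seen, rose from 718 and 438 CPM to 1796 and 1413 CPM. Krt1, the partner of Krt10 and likewise chosen after its values were seen, exceeded vehicle with FA+TPA (7675 and 6392 CPM against 2298 to 2811 CPM). That comparison with vehicle does not separate FA from TPA.

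Barrier lipid and basal genes moved in the same direction in smaller numbers. Of 30 barrier lipid genes 8 rose and 0 fell (median log2 change 0.31), 3 rises passing in all 8 fits and 3 being left without the wild-type FA+TPA library. Aloxe3, a lipoxygenase of the water barrier, rose from 166 and 126 CPM to 360.0 and 269.9 CPM, above the 177 to 241 CPM of vehicle. Elovl1, which elongates the fatty acids of barrier ceramides, rose by 0.83 ± 0.12 on the log2 scale (edgeR adjusted p = 0.00194). Of 19 basal and hemidesmosome genes 6 rose and 0 fell (median log2 change 0.10), and 3 rises were left without knockout vehicle library 2. Krt15, a keratin of basal cells and follicle stem cells, rose from 172 and 379.6 CPM to 851 and 809.8 CPM, well short of the 1977 to 2273 CPM of vehicle. Dst, a hemidesmosome linker protein, rose by 1.24 ± 0.13 (edgeR adjusted p = 0.000337).

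The restored genes with the largest changes by the same rule had varied roles. Fmo2, a flavin monooxygenase (chromosome 1, 162874317 to 162898726), was at 63.9, 62.9, 48.5 and 35.8 CPM in vehicle, 6.59 and 1.57 CPM with TPA, and 140.2 and 75.1 CPM with FA+TPA. Both FA+TPA libraries exceeded all vehicle libraries, 21.3-fold over TPA in wild type and 47.8-fold in knockout. Slc27a2, a very-long-chain fatty acid transporter, was at 0.0616 and 0.18 CPM with TPA (1 and 4 counts) and at 4.33 and 3.2 CPM with FA+TPA. Abca6, a transporter of the lipid-carrying ABCA family, rose by 4.74 ± 0.34 on the log2 scale (edgeR adjusted p = 5.42e-05), Krt32, a hair keratin, by 4.54 ± 0.40 (edgeR adjusted p = 0.000119), and Galnt15, which starts O-linked sugar chains, by 4.05 ± 0.30 (edgeR adjusted p = 5.42e-05).

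**Figure D2:**
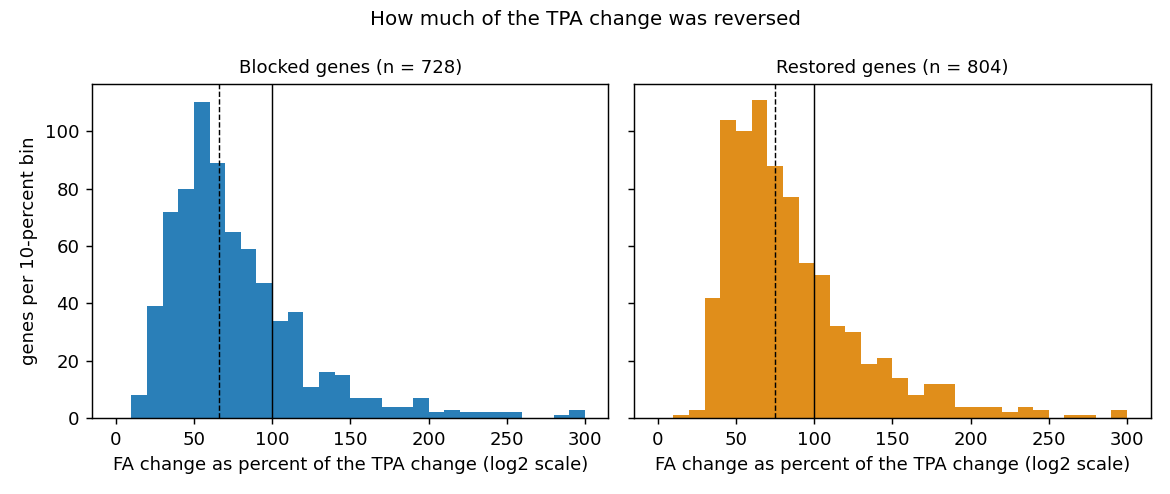
Share of the TPA change that FA reversed, in percent on the log2 scale, for the 728 blocked and the 804 restored genes in bins of 10 percent; the solid line marks 100 (back at vehicle), the dashed line the median, and larger values are drawn in the last bin. Both histograms peak under 100, with medians of 66 and 74.9.

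FA reversed the TPA change in part for most blocked and restored genes. Since the TPA libraries enter both changes, the share reversed is a description of the genes chosen by the calls. It had a median of 66% in blocked genes (middle 50% of genes from 47.7% to 95.7%) and 74.9% in restored genes (55.8% to 104.3%). Among blocked genes 159 were reversed by 100% or more, 370 by 50% to 100% and 199 by less. Of these 728, 354 still differed from vehicle on the TPA side in FA+TPA libraries, 349 did not pass the test against vehicle and 25 passed on the other side. Among restored genes the corresponding numbers were 357, 387 and 60. The medians were close in both genotypes, at 69.1% in wild type and 64.6% in knockout for blocked genes and 75.4% and 73% for restored genes. With library size as the only scaling the median was 78.1% for the same blocked genes and 63.3% for the same restored genes, so the order of the classes turned with the scaling.

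Known glucocorticoid targets rose more often than they fell. Of 34 tested 12 rose and 2 fell (median log2 change 0.54), 7 rises passing in all 8 fits and 7 being left without the wild-type FA+TPA library. Of the 12 rises 9 were in restored genes, and TPA had lowered 17 of the 34. Fkbp5, a co-chaperone that feeds back on the receptor, was at 129, 80.5, 126 and 147 CPM in vehicle, 61 and 66.9 CPM with TPA, and 241 and 233 CPM with FA+TPA, above all vehicle libraries (log2 change over TPA 1.90 ± 0.20, edgeR adjusted p = 0.000314). Zbtb16, a transcription factor known as a sensitive steroid target, rose from 26 and 32.7 CPM to 173 and 141 CPM, inside the 141 to 252 CPM of vehicle. Klf9, a glucocorticoid-induced factor chosen after its values were seen, rose from 15.2 and 16.2 CPM to 50.8 and 44 CPM against 47 to 80 CPM. Other well-known targets did not pass the test 24 h after TPA, among them Per1 (log2 change 0.24 ± 0.16), Dusp1 (0.38 ± 0.32) and Anxa1 (0.33 ± 0.13), chosen after their values were seen, with edgeR adjusted p of 0.425, 0.533 and 0.135. In the receptor and its cofactors 1 of 21 rose and 1 fell, near the shares over all genes (5.71% higher, 4.31% lower). Neither passed in all 8 fits. Nr3c1, the receptor gene itself, chosen after its values were seen, was at 69.1 and 81.7 CPM with TPA and 77.7 and 87.6 CPM with FA+TPA, below the 132 to 164 CPM of vehicle in all 4.

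Genes of muscle and skin atrophy under steroids, many of them FoxO targets, included Trim63, with the largest rise of that list. Of 21 tested 5 rose and 2 fell (median log2 change 0.15), and 3 rises passed in all 8 fits. Trim63, the ubiquitin ligase MuRF1 (chromosome 4, 134315120 to 134329629), was at 0.0616 and 0.269 CPM with TPA (1 and 6 counts) and at 4.2 and 4.29 CPM with FA+TPA. The vehicle libraries had 0.226 and 0.0517 CPM (wild type) and 0.703 and 0.0908 CPM (knockout), and the rise over TPA was 4.60 ± 0.71 on the log2 scale (edgeR adjusted p = 0.00257). Trim63 is known from skeletal muscle, and the summed CPM of 11 muscle markers also moved with FA, from 35.4 (wild type) and 50.4 (knockout) with TPA to 190 and 157 with FA+TPA. The muscle sum was highest, at 249, in knockout vehicle library 1. That library got no FA and had 0.703 CPM of Trim63, the highest of the vehicle libraries. The part of muscle in the Trim63 rise was not tested. Fbxo32, the ubiquitin ligase atrogin-1, was restored from 15.3 and 14.8 CPM to 48.4 and 57.1 CPM, under the 113 to 151 CPM of vehicle. Klf15, a glucocorticoid-induced regulator of amino acid breakdown, rose by 2.01 ± 0.25 (edgeR adjusted p = 0.000736). In the list of REDD1 and mTORC1 regulators 2 of 25 rose and 0 fell, a share near the 5.71% over all genes, and 1 was left when any of the 4 treated libraries was left out. Txnip, a partner of REDD1 that limits glucose uptake, was at 304 to 799 CPM in vehicle, 54.9 and 75.4 CPM with TPA and 286 and 299.5 CPM with FA+TPA (log2 change over TPA 2.17 ± 0.36, edgeR adjusted p = 0.00352).

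The 250 bases upstream of Trim63 and Txnip are shown because each holds the full palindrome of a glucocorticoid response element, written GNACANNNTGTNC with N for any base and in capitals below. It began 208 bases before the start site in Trim63 and 172 bases before it in Txnip. The sequences are again RefSeq promoters on GRCm38.p6.
Trim63 chr4:134314870-134315119 (+ strand): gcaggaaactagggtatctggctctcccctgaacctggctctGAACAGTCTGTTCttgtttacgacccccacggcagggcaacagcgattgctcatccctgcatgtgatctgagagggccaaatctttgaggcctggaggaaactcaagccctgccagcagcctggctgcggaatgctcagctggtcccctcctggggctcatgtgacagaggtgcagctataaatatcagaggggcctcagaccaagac
Txnip chr3:96557707-96557956 (+ strand): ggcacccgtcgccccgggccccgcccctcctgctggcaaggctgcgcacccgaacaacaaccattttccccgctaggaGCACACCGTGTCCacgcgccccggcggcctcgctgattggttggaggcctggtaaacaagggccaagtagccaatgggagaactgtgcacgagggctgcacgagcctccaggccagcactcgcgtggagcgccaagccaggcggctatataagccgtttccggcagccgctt

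Such matches were rare in all classes, and they describe letters, not binding. Of the tested genes 12120 (63.0%) matched a promoter in the RefSeq table, taken from 250 bases before to 50 after the start nearest the annotated 5′ end, and motifs were sought on both strands. The glucocorticoid palindrome was in 46 of 12120 (0.38%). It was in 7 of 574 promoters of restored genes (1.22%), 1 of 126 of induced genes (0.794%) and 1 of 523 of blocked genes (0.191%). The restored genes with it were Clic3, Gnmt, Pdzd7, Serpina3c, St8sia1, Suox and Txnip, the induced gene was Trim63 and the blocked gene Cpxm1, all named after their values were seen. The AP-1 motif was in 4.13% of all promoters, 4.97% for blocked, 7.67% for restored and 9.52% for induced genes. The NF-kB motif was in 10.1% of all promoters, 13.6% for blocked, 8.89% for restored and 9.52% for induced genes, and the TATA box (TATAAA) was in 7.98% of all, 11.7% for blocked, 10.5% for restored and 7.94% for induced genes.

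The genes induced with FA and not called with TPA were mostly changed by less than 2-fold. Of the 187, 54 rose 2-fold or more (median log2 change 0.72 over TPA), and 22 passed in all 8 fits. Rhox10, a homeobox gene, rose from 1.11 and 0.853 CPM to 4.71 and 3.26 CPM, with 1.14 to 1.98 CPM in vehicle. The largest change by the naming rule was in Lox, the collagen cross-linking enzyme lysyl oxidase, at 1.05 and 2.15 CPM with TPA, 17.2 and 9.0 CPM with FA+TPA and 0.516 to 1.95 CPM in vehicle. Its edgeR adjusted p was 0.00362, and 0.0615 without the wild-type FA+TPA library. Pdk4, the kinase that shuts off pyruvate oxidation and a glucocorticoid target also made in muscle, rose from 5.18 and 4.04 CPM to 21.9 and 20.2 CPM (edgeR adjusted p = 0.00492). It did not pass with the wild-type FA+TPA library left out (edgeR adjusted p = 0.0863) or with the knockout TPA library left out (edgeR adjusted p = 0.0608). Kcnj12, a potassium channel, and Acsm1, a medium-chain acyl-CoA synthetase, rose by 2.21 and 2.36 on the log2 scale. Both calls were lost without the wild-type FA+TPA library (rises of 1.81 and 1.57) and without the knockout TPA library (1.87 and 2.05). Apod, a lipid-binding protein, Adgrd1, an adhesion receptor, and Adamts2, a procollagen protease, rose by 2.17, 1.86 and 1.63. Each call was lost without the wild-type FA+TPA, the knockout FA+TPA or the wild-type TPA library. The rises were smallest without the wild-type TPA library, at 1.29, 1.07 and 1.35. The muscle sums above moved in the same direction as these genes, and their part in the result was not tested.

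Genes lowered with FA but not called with TPA included 6 interferon-stimulated genes. Of all 41 tested interferon-stimulated genes 10 fell and 0 rose (median log2 change -0.58), 2 falls passing in all 8 fits and 3 being left without the knockout FA+TPA library. Stat2, part of the interferon-activated transcription complex, went from 41.6 and 56.5 CPM to 25.5 and 27.5 CPM, under the 35.3 to 54.1 CPM of vehicle. Irf1, an interferon-induced transcription factor, fell by 1.14 ± 0.15 on the log2 scale (edgeR adjusted p = 0.00112), to 11.4 and 14.4 CPM against 20.1 to 22.9 CPM in vehicle. Oasl2, an antiviral gene, fell from 4.5 and 12.2 CPM to 1.27 and 2.42 CPM, but vehicle libraries spread from 1.81 to 11.8 CPM and the call was lost with the knockout FA+TPA library left out (edgeR adjusted p = 0.128). Outside that list Limch1, an actomyosin regulator, fell from 18.3 and 33.2 CPM to 6.55 and 10.9 CPM, with 19.8 to 46 CPM in vehicle. Maob, monoamine oxidase B, fell by 1.39 ± 0.21 (edgeR adjusted p = 0.00203), and Rnf122, a ubiquitin ligase, by 1.48 ± 0.21 (edgeR adjusted p = 0.00178). Of the 72 genes in this class 35 fell 2-fold or more and 9 passed in all 8 fits.

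A small set moved further in the TPA direction. Arc, an activity-regulated immediate early gene, was at 8.42, 9.21, 5.77 and 5.95 CPM in vehicle, 15.3 and 15.8 CPM with TPA and 72.5 and 57.4 CPM with FA+TPA (log2 change 2.04 ± 0.15 over TPA, edgeR adjusted p = 5.42e-05). AI481877, a transcript known by its identifier, rose by 1.71 ± 0.23 (edgeR adjusted p = 0.00112). In the other direction Gpr155, a cholesterol-sensing lysosomal protein, fell from 23.1 and 30.4 CPM to 11.5 and 12.5 CPM, below 31.8 to 42.1 CPM in vehicle. Alox12e, an epidermal lipoxygenase, fell by 1.25 ± 0.29 (edgeR adjusted p = 0.0214), from 240.1 to 63 CPM (wild type) and from 198 to 124 CPM (knockout). The call was lost with the wild-type FA+TPA library left out (edgeR adjusted p = 0.199), with the wild-type TPA library left out (edgeR adjusted p = 0.129) and in DESeq2 (adjusted p = 0.0715).

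In some lists that TPA moved, the number that passed with FA was at or near the share over all genes. Of 46 cell cycle genes TPA raised 38, and FA lowered 2 and raised 1 (median log2 change -0.24), against 4.31% lower and 5.71% higher over all genes. The number lowered was 0 in 6 of the 8 fits with a library left out and at most 7 under other settings. Mki67, the proliferation marker, chosen after its values were seen, was at 418 and 411 CPM with TPA and 409 and 325 CPM with FA+TPA, against 89.7 to 147 CPM in vehicle (log2 change over TPA -0.17 ± 0.19, edgeR adjusted p = 0.668). Of 24 cholesterol synthesis genes TPA raised 13, and FA called 0 in edgeR, DESeq2 and limma-voom, with 3 higher at an unadjusted edgeR p under 0.05. The smallest p there was that of Tm7sf2, a sterol reductase (log2 change 0.54 ± 0.16, edgeR adjusted p = 0.0646). Of 24 ATF4 targets TPA raised 21, and FA lowered 2 and raised 1, the number lowered being 0 to 5 with a library left out. A p that misses the threshold does not show that FA left these genes alone.

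**Figure D3:**
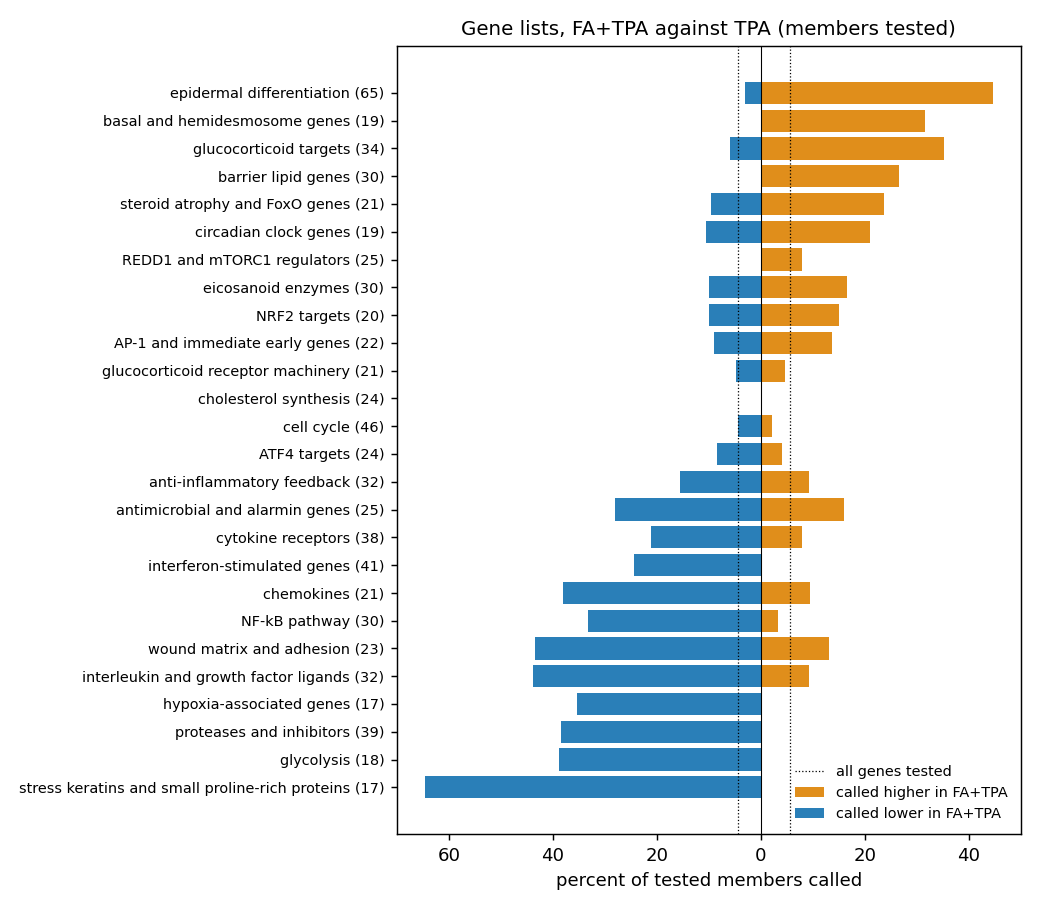
Percent of tested members of each gene list called higher (right, orange) or lower (left, blue) in FA+TPA than in TPA at an edgeR adjusted p under 0.05; the number tested is in brackets, and dotted lines mark the share over all genes tested (5.71% higher, 4.31% lower). Stress keratins lie at one end with 11 of 17 lower, and epidermal differentiation at the other with 29 of 65 higher.

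The FA changes of the 2 genotypes were set side by side. Each genotype's FA change came from its own 2 libraries, so the wild-type and knockout changes share no library, though they share the normalisation. Over the 14101 genes whose mean log2 CPM was at least 1, the wild-type and knockout changes had a Pearson r of 0.71 and a Spearman rho of 0.59, as a description over genes that are not independent. Among these, 290 rose 2-fold or more in both genotypes, 206 fell 2-fold or more in both and 6 did so in opposite directions. Over all 19251 tested genes, low ones included, r was 0.58 and rho 0.49, with 448, 393 and 55 genes in those sets. The test of a different FA response by genotype called 0 of 19251 genes (0.00%) in edgeR, with 613 at an unadjusted p under 0.05, and called 7 in DESeq2 and 0 in limma-voom. That test has 1 treated library per group and takes its spread from the vehicle pairs.

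**Figure D4:**
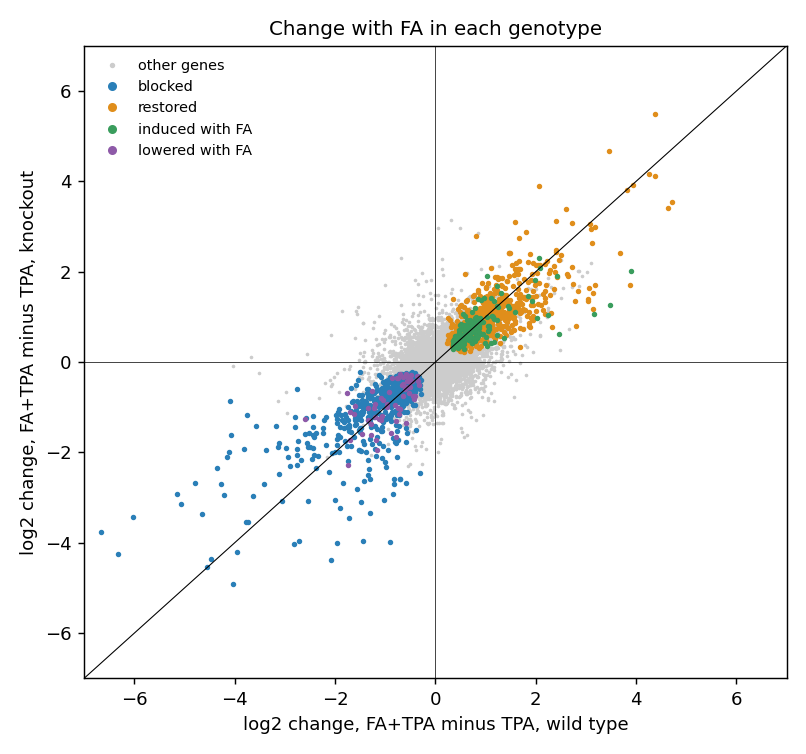
Log2 change from TPA to FA+TPA in wild type (horizontal) and knockout (vertical) for 14101 genes whose mean log2 CPM was at least 1, coloured by class; the diagonal is equal change. Blocked and lowered genes lie below 0 in both genotypes, restored and induced genes above 0, which the additive test favours.

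Markers of other cells moved with these results. The summed CPM of 12 neutrophil markers was 36.1 to 47.1 in vehicle libraries, 981 (wild type) and 443 (knockout) with TPA, and 117 and 211 with FA+TPA. Most of that sum was S100a8 and S100a9, which stressed keratinocytes also make. Without these and Mmp9 the sums were 48.7 and 80.1 with TPA, 17 and 20.5 with FA+TPA and 1.5 to 3.26 with vehicle. Cxcr2 (34.9 and 36.3 CPM with TPA, 11.5 and 14.8 CPM with FA+TPA) and Csf3r made up most of these TPA sums. Low members differed: Mpo went up from 0.37 and 0.0898 CPM to 0.827 and 0.785 CPM. Mmp8 went up in wild type (0.247 to 0.954 CPM) and down in knockout (3.73 to 0.785 CPM). Csf3r, the receptor for the neutrophil growth factor G-CSF, fell from 11.9 and 34.8 CPM to 3.12 and 3.62 CPM (edgeR adjusted p = 0.000943), while the granule gene Elane had 0 counts in all treated libraries and Ly6g 1 count at most per library. Of 8 tested neutrophil markers 5 fell and 0 rose, and 2 fell without the wild-type FA+TPA library. In the list of antimicrobial and alarmin genes 7 of 25 tested members fell and 4 rose (median log2 change -0.64). The number that fell was 3 to 13 under the other settings with no library left out by turn. It lay below that range without the wild-type FA+TPA, the wild-type TPA or the knockout FA+TPA library. The fall of the neutrophil marker sums ran beside these falls and those of chemokines and proteases, and its part in them was not tested.

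Macrophage markers divided. Of 13 tested 5 fell and 2 rose, and without the knockout FA+TPA library 0 fell. Mrc1, the mannose receptor, went from 42.4 and 186 CPM with TPA to 15.1 and 21.5 CPM with FA+TPA (edgeR adjusted p = 0.00645, 0.115 without the knockout FA+TPA library and 0.0706 without the knockout TPA library). C1qa, a subunit of complement C1q made by tissue macrophages, rose with FA from 5.05 and 6.42 CPM to 12.8 and 13.8 CPM, against 1.7 to 2.31 CPM in vehicle (edgeR adjusted p = 0.00175). The summed CPM of the list was 147 and 359 with TPA and 154 and 183 with FA+TPA, so the sum fell in knockout and not in wild type. Langerhans cell and class II markers summed to 730 and 781 with TPA and 521 and 673 with FA+TPA, below the 993 to 1130 of vehicle, and 2 of 11 fell (0 without the knockout TPA library or without the wild-type FA+TPA library, 4 without wild-type vehicle library 2). Skeletal muscle markers rose in sum (35.4 and 50.4 to 190 and 157) with a median log2 change of 2.04, yet 0 of 10 passed in edgeR in the full fit (5 at an unadjusted p under 0.05) and 0 in DESeq2, with vehicle libraries spread from 9.67 to 249. In other fits 10 passed without the low-count filter, 9 in the 4 treated libraries alone and 5 without knockout vehicle library 1. Ckm, the muscle creatine kinase, had the smallest p among them (1.11 and 2.69 CPM to 10.4 and 12.7 CPM, edgeR adjusted p = 0.0583).

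**Figure D5:**
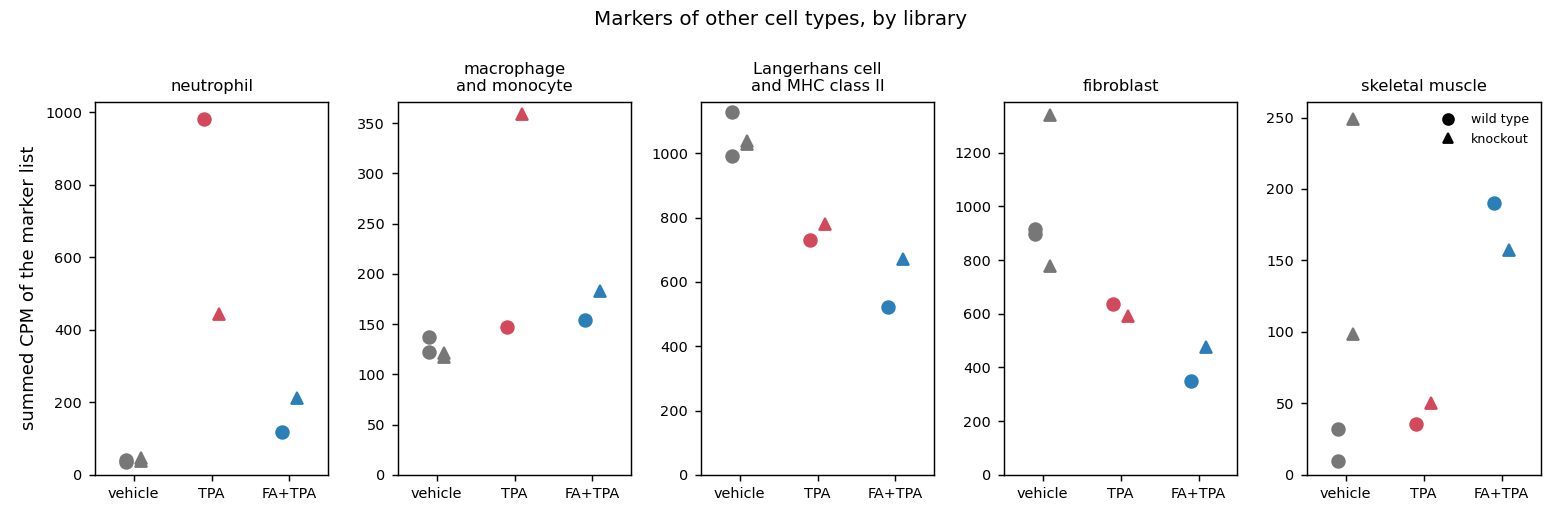
Summed CPM of marker lists of 5 other cell types in each library, by treatment (circles wild type, triangles knockout; linear axes from 0). Neutrophil sums are highest with TPA (981 and 443), Langerhans and fibroblast sums lowest with FA+TPA, and muscle sums higher with FA+TPA (190 and 157) than with TPA (35.4 and 50.4).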

How the data were processed

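RNA was sequenced from 8 epidermal libraries in 6 groups of genotype and treatment. The authors deposited raw read counts per Ensembl gene for each library, not normalised; per the submitters' processing notes, reads were handled with Trim Galore, STAR and HTSeq on mm10. The sources used here give no tool versions, annotation or strand setting, so overlapping and antisense genes, and near-identical copies, are uncertain. Of 54232 identifiers 54165 matched GENCODE M21, which gave symbols and coordinates.

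The deposited counts were fitted with edgeR 4.0.16 in R 4.3.3 (quasi-likelihood F test, TMM factors 0.859 to 1.102, low-count filter filterByExpr by treatment at 10 counts, Benjamini-Hochberg adjustment, threshold 0.05). Genotype and treatment were additive over all 8 libraries, leaving 4 residual degrees of freedom, so a response of 1 genotype alone adds to the spread. The genotype difference in the FA response was fitted with group means (2 residual degrees of freedom). SE was taken as |log2 change| over the root of F. CPM used TMM-scaled totals, and floors cover counting error only. The fit was tested on simulated data with the same spread for every gene and no genotype effect. That setting is simpler than these data, so it does not show how many of the calls here would hold. Alternatives were RLE, library size only, no low-count filter or one at 50 counts, group means, limma-voom (limma 3.58.1), DESeq2 1.42.0, Gm26917 removed, the 4 treated libraries alone and each library left out.

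Named were Ddit4, then per class the 8 largest FA changes (3 for genes pushed further) whose mean log2 CPM was at least 1 and the same sign in both genotypes, without identifier-only, Gm or Rik symbols, and up to 3 members per list with the smallest p. Not every gene the rule takes is reported. The comparison, the lists and the rule were chosen with earlier results of these data known. The share reversed is the FA change, sign turned, over the TPA change, both on the log2 scale.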

Additional observations from a re-analysis of the deposited data

How the results depend on the processing

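No gene called and named changed direction under the alternatives run. FA+TPA against TPA called 1099 genes higher and 830 lower, but 483 higher and 504 lower without the knockout TPA library. The number higher was 955 to 1577 under other settings with all 4 of its libraries kept; the 830 lower became 1289 without the low-count filter and 1377 in the 4 treated libraries alone. With library size only, TPA raised 2846 genes and lowered 6432, FA+TPA against vehicle raised 1953 and lowered 4982, and 52 genes were pushed further up by FA. At a threshold of 0.01 the classes held 316 blocked, 394 restored, 94 induced, 26 lowered, 27 pushed further up and 1 further down. With a 2-fold minimum in each call they held 338, 322, 53, 34, 11 and 1, and with 1 mean per group 9 genes were pushed further down. With each library left out in turn, FA+TPA against TPA called 330 to 1344 higher and 241 to 1023 lower, TPA called 3263 to 4503 higher and 2752 to 4348 lower, and FA+TPA against vehicle called 1672 to 3333 higher and 980 to 2747 lower. The class counts ran from 226 to 887 for blocked, 292 to 961 for restored, 28 to 230 for induced, 14 to 93 for lowered, 8 to 111 for further up and 1 to 20 for further down, lowest without the wild-type FA+TPA library. Those fits have fewer libraries in an arm. The treated libraries carry no replicate number, so a replicate block could be fitted to the vehicle libraries alone: knockout against wild type called 832 genes with the replicate block and 454 without it.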

Other observations

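Several gene families outside the lists held members that moved together, and they were picked after their values were seen, so their counts are a description. In the Mrgprb family of G protein-coupled receptors, Mrgprb2, Mrgprb3 and 2 pseudogenes were tested, and all 4 were higher in FA+TPA than in TPA libraries (median log2 change 2.35). Mrgprb3 was at 22.6 to 29.5 CPM in vehicle, 2.90 (wild type) and 2.24 (knockout) CPM with TPA, and 15.8 and 13.0 CPM with FA+TPA. Of 11 tested Skint genes, which encode keratinocyte proteins related to the selecting ligand of dendritic epidermal T cells, 6 were higher and Skint2 was lower. The fall of Skint2 (edgeR adjusted p = 0.0292) was lost without the knockout FA+TPA, knockout TPA or wild-type FA+TPA library (edgeR adjusted p = 0.0939, 0.164 and 0.259) and in limma-voom (adjusted p = 0.0576). Skint5 was at 242 to 323 CPM in vehicle, 51.3 and 34.2 CPM with TPA and 101 and 87.1 CPM with FA+TPA. Skint and Mrgprb genes are close copies, and reads counted to each member are uncertain. Among 6 Nlrp inflammasome genes 4 were higher and Nlrp3 was lower. Nlrp1b went from 7.46 and 11.7 CPM to 17.8 and 23.1 CPM, while Nlrp3 went from 4.13 and 7.77 CPM to 2.10 and 1.93 CPM, a call lost without the knockout FA+TPA, knockout TPA or wild-type FA+TPA library (edgeR adjusted p = 0.265, 0.253 and 0.0909).

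Connexin and STAT genes also divided by member. Gjb2, Gjb6 and Gjb1 were lower with FA and Gjb5 was higher, the call of Gjb6 being lost with a wild-type library of either treatment left out (FA+TPA, edgeR adjusted p = 0.288; TPA, edgeR adjusted p = 0.245). Gjb5 went from 46.0 and 37.3 CPM to 72.3 and 73.4 CPM, with 88.2 to 110 CPM in vehicle. Stat3, the carrier of interleukin-6 family signals, fell from 427 and 375 CPM to 209.7 and 225 CPM, with 161 to 185 CPM in vehicle. Stat2 and Stat5a were lower as well, Stat5a not without the wild-type FA+TPA library (edgeR adjusted p = 0.0527), and Stat5b and Stat6 were not called (edgeR adjusted p = 0.867 and 0.6). Of 11 Abca lipid transporters 5 were higher and 0 lower. Abca4 went from 4.44 and 3.46 CPM to 15.7 and 10.8 CPM, and Abca9 from 1.66 and 4.53 CPM to 15.6 and 13.4 CPM.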
